A study of Mus musculus with 4 samples.

Results

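Matricellular proteins are secreted into the extracellular matrix, where they act mainly on cells and on growth factors and less as fibres that bear load. Here 7 genes were followed through the healing infarct of the mouse heart: Fn1, Tnc, Postn, Cilp, Thbs1, Thbs2 and Thbs4. They were taken by symbol from the 32285 genes of the deposited feature tables, and all 7 were among the 4769 genes with at least 1000 unique molecular identifiers (UMIs, counted mRNA molecules) over the spots used. Their totals ran from 1039 UMIs for Cilp to 24571 for Fn1. The members were chosen with earlier results of these data known. Their counts beside the shares of all genes are therefore descriptions and no independent test.

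The measurements were Visium spatial transcriptomes, in which a tissue section lies on a slide of barcoded spots and each spot collects mRNA from the several cells above it. Adult ICR mice, females of 12 weeks by the methods, underwent permanent ligation of the left anterior descending coronary artery, and 1 heart section of 10 µm was taken from 1 mouse on each of days 1, 4, 7 and 14. The labels and methods give day 1 for the earliest section, whereas part of the published text gives day 2, and day 1 here means that earliest section. All 4 groups carried the ligation, and no uninjured section was used here. With 1 mouse per day, a difference between days cannot be told apart from a difference between mice, so day values carry exact Poisson intervals at 95%, which cover counting error alone. Permanent ligation leaves the artery closed, so these hearts model an infarct without reperfusion.

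After removal of spots with over 1% hemoglobin UMIs, 7503 of 9102 spots remained, between 1679 and 2086 per section, with 9292678 to 15713779 UMIs per section and a median of 5188 to 8799 UMIs per spot. All 15 genes of the cardiomyocyte list were detected in every section. Visium slides reuse their printed barcodes, and 1332 barcodes occurred in all 4 sections as positions and not as shared cells. In the day 7 section, 115 of the 118 spots with 10 or more UMIs of fast skeletal muscle genes lay in the group of spots poorest in cardiomyocyte RNA. Fewer cells of a type and less RNA per cell cannot be told apart in spot sums.

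When cardiomyocytes die, plasma fibronectin and fibrin form a provisional matrix, into which macrophages and fibroblasts move. Fibroblasts that become myofibroblasts then lay down collagens I and III together with matricellular proteins, many of which are scarce in the adult myocardium and return after injury. Tenascin-C, encoded by Tnc, is known for weakening cell adhesion at wound edges, and periostin, encoded by Postn, is a widely used mark of activated cardiac fibroblasts that takes part in collagen cross-linking. Cilp, cartilage intermediate layer protein, binds and inhibits TGF-beta. Thrombospondin-1 and thrombospondin-2 are trimers that inhibit blood vessel growth, and thrombospondin-1 can activate latent TGF-beta, whereas thrombospondin-4 is a pentamer of the other thrombospondin subgroup, known from tendon and stressed muscle.

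RefSeq promoter entries matched 5 of the 7 genes, and Thbs1 and Fn1 were not matched. The upstream sequences of the 4 matched genes that held letters of the motifs searched are shown, so that the spatial values can be set against the promoter letters. Each line gives the 250 bases before the annotated start on build GRCm38.p6, 5′ to 3′ on the strand of the gene, with motif letters in capitals. Postn lies at chr3:54360857-54361106 on the plus strand, Tnc at chr4:64047016-64047265 on the minus strand, Thbs2 at chr17:14694263-14694512 on the minus strand and Thbs4 at chr13:92794819-92795068 on the minus strand.
Postn: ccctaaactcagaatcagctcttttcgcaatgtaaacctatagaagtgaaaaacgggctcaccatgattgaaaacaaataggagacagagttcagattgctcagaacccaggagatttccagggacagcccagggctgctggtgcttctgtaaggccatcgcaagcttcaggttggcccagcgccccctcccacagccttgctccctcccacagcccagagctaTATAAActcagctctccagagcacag
Tnc: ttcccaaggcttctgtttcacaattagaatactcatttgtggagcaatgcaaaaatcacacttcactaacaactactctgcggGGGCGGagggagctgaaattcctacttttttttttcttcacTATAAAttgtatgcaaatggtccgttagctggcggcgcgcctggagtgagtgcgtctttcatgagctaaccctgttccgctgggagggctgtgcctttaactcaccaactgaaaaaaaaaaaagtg
Thbs2: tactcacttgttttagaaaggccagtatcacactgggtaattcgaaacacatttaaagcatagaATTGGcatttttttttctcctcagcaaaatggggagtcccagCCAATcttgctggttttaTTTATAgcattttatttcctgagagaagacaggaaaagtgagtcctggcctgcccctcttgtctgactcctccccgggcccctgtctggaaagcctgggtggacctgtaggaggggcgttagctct
Thbs4: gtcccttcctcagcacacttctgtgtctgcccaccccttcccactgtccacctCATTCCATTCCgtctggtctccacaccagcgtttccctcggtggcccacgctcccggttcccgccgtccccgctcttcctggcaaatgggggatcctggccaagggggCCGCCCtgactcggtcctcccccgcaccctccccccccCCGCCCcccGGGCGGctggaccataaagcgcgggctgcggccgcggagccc

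Both strands were searched for the AP-1 site TGANTCA, for the TEAD site GGAATG, for the TATA box as TATAAA, for CCAAT, for the GC box as GGGCGG and for the CArG box. Positions count back from the start, so that -1 is the base before it, and mark the first base of the match on the strand shown. Postn held the TATA letters at -26, close to its start. Tnc held them at -126 and a GC box at -167. Thbs2 held them on the reverse strand at -126, and CCAAT or its reverse complement at -186 and -144. Thbs4 held the TEAD letters on the reverse strand at -197 and -192, a pair that shares 1 base, and a GC box on either strand at -89, -51 and -42. Cilp, at chr9:65264930-65265179 on the plus strand, held none of these letters. Only exact letters were searched, and Cilp has tatataag close to its start, which a search for TATAAA passes over. Among 32851 mouse promoters of the same length, 12.4% held the TATA letters, 12.6% the TEAD letters, 33.8% CCAAT, 32.7% a GC box, 6.75% the AP-1 letters and 1.47% a CArG box. These are letter matches and not measured binding.

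Over the whole section, every member was lowest on day 1 or on day 14 and highest on day 4 or day 7. Fn1, Tnc and Thbs1 were highest on day 4, and Postn, Cilp, Thbs2 and Thbs4 on day 7. Of all 4769 genes, 17.4% were highest on day 4 and 40.8% on day 7, while 30.4% were highest on day 1 and 11.4% on day 14, days on which 0 of the 7 members had their highest section level. Levels are given as counts per 1000000 UMIs of the spots summed (CPM), and they are compared between days and regions for each gene and not between genes.

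Fibronectin, the adhesive glycoprotein of the provisional matrix, stood at 180, 917, 737 and 153 CPM on days 1, 4, 7 and 14, with intervals of 173 to 188, 901 to 933, 720 to 755 and 147 to 159. The day 4 section held 5.09 times the Fn1 level of day 1 (4.86 to 5.33), and the day 7 level was 0.804 of the day 4 level (0.781 to 0.828). Tnc stood at 54.6, 77.8, 68.7 and 5.35 CPM in the same order. Its day 1 section already had 70.1% of the day 4 level, and the day 14 level was 0.0687 of it (0.0543 to 0.0858).

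Postn, the fibroblast activation gene, stood at 56.7, 800.5, 934 and 85.6 CPM on days 1, 4, 7 and 14. This was a 14.1-fold higher level on day 4 than on day 1 (13.1 to 15.3) and 16.5-fold on day 7 (15.2 to 17.8). Cilp stood at 4.10 (from 49 UMIs), 26.5, 45.4 and 12.0, which gave 11.1-fold on day 7 over day 1 (8.23 to 15.2). The intervals of days 4 and 7 did not overlap for Postn and Cilp, and also not for Fn1, Thbs1 and Thbs2. The share of all genes with such intervals was not counted. Without the hemoglobin filter Postn stood at 811 and 853 CPM on days 4 and 7.

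The thrombospondins differed in their section levels by day. Thbs1 stood at 38.7, 70.2, 39.8 and 8.72 CPM by day, so that days 1 and 7 were not separable (ratio 1.03, 0.894 to 1.18). Thbs2 stood at 12.2, 69.8, 83.7 and 23.7 CPM on days 1, 4, 7 and 14, a 6.85-fold higher level on day 7 than on day 1 (5.74 to 8.24). Thbs4 stood at 19.9, 34.4, 34.4 and 11.9 on the same days. Its days 4 and 7 were not separable (ratio 1.00, 0.866 to 1.15), so its peak day is day 4 or day 7.

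A level at least 2-fold above day 1 was reached on day 4 by 4 of the 7 members (Fn1, Postn, Thbs2 and Cilp), against 3.88% of all genes. The same 4 members reached it on day 7, against 4.03% of all genes. On day 14 only Cilp reached it, at 2.92-fold (2.12 to 4.08), against 0.671% of all genes.

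**Figure D1:**
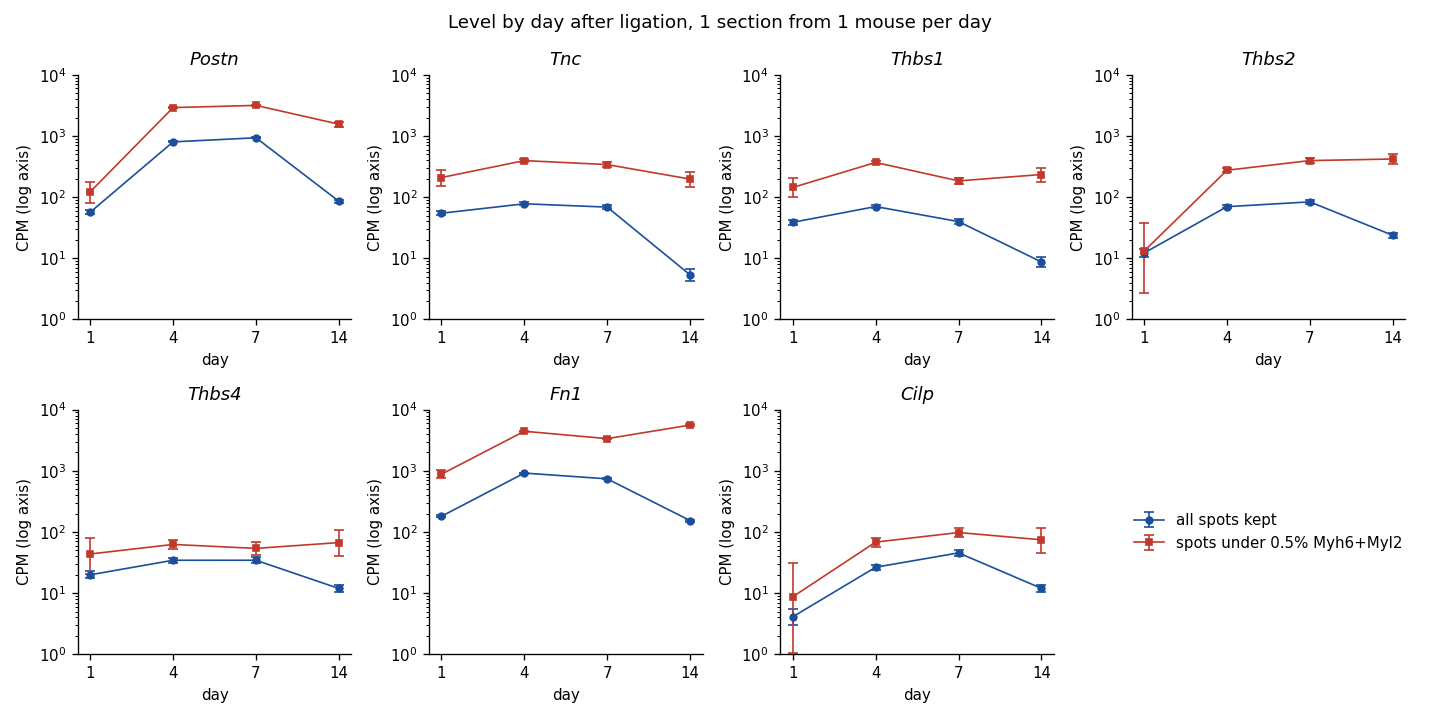
Level of each gene in CPM (log axis) by day after ligation, over all spots kept (blue circles) and over spots with under 0.5% of UMIs from Myh6 and Myl2 (red squares), with exact Poisson intervals at 95%. Over all spots Fn1 is 917 on day 4 and 153 on day 14, whereas in the cardiomyocyte-poor spots it is 4425 and 5590.

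The low section levels of day 14 were shared only in part by the spots that held little cardiomyocyte RNA. Spots with under 0.5% of their UMIs from Myh6 and Myl2, an absolute limit that was the same for all days and was chosen after the section values had been seen, numbered 62, 337, 407 and 176 on days 1, 4, 7 and 14. In these spots Fn1 stood at 881, 4425, 3352 and 5590 CPM, and its day 14 level was 1.26 times that of day 4 (1.20 to 1.33). Thbs2 stood at 13.1 from 3 UMIs, 275, 396 and 420, with day 14 not separable from day 7 (ratio 1.06, 0.859 to 1.3). The content of these spots also differed by day. On day 7, 110 of the 407 spots held skeletal muscle RNA, and on day 14 the neutrophil list summed to 1209 CPM against 198 on day 4 and the mesothelium list to 428 against 15.8, and their part in the levels was not tested. Fn1 and Thbs2, lower over the section on day 14 than on day 4, were higher on day 14 than on day 4 in these spots.

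Postn and Tnc were lower on day 14 by this measure too. Postn stood at 122, 2911, 3161 and 1558 CPM in these spots, and the day 14 level was 0.493 of the day 7 level (0.445 to 0.545). Tnc stood at 209, 396, 340 and 197, and its day 14 level was 0.498 of the day 4 level (0.370 to 0.658). Thbs1 stood at 144, 369, 184 and 234, with its highest level on day 4. Thbs4 (43.6, 62.4, 53.8 and 66.9) and Cilp (8.72 from 2 UMIs, 68.2, 97.8 and 74.4) had intervals on day 14 that overlapped those of days 4 and 7.

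Depth differed between days in such tissue. On day 14 the first of 10 deciles of spots ranked by Myh6 and Myl2 share held 1.94% of the section's UMIs, against 7.30% to 7.77% on the other days, and the spots under 0.5% had a median of 1227.5 UMIs on day 14 against 2547 to 5999 on the other days. This decile nevertheless held 65.7% of all Fn1 UMIs and 65.5% of all Tnc UMIs (55 of 84) of the day 14 section. For the other members the share ran from 11.2% for Thbs4 and 17.0% for Cilp to 51.1% for Thbs1. The part of infarct size, section position and depth in the section levels was not tested.

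To place the members in the section, spots were ranked within each section by the share of UMIs from Myh6 and Myl2, the cardiomyocyte myosin genes, and cut into 4 groups of equal size, from Q1, poorest in cardiomyocyte RNA, to Q4, richest. The upper limit of Q1 was 1.08%, 0.652%, 0.706% and 1.94% on days 1, 4, 7 and 14. On day 14 it thus reached into spots as rich in these genes as Q2 of days 1 and 7 and Q3 of day 4. Over all its spots, Q1 had 0.773%, 0.271%, 0.229% and 1.53% of UMIs from Myh6 and Myl2 in the order of days. Summed UMIs of the 16 libraries (4 sections by 4 groups) were compared with edgeR's quasi-likelihood test with the section as a block, so that the 4 mice, each of another day, are the replicates. The error was pooled over all 4 groups, which left 9 residual degrees of freedom. The p-values below were adjusted by Benjamini-Hochberg over 4767 genes.

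All 7 members rose in Q1 against Q4, where 35.2% of all genes tested did, and the median log2 fold change of the members was 4.16 against 0.05 for all genes. The limit of 1000 UMIs for testing counted Q1 too, so a gene could pass it through high levels in Q1. Tnc, for example, had 76.6% (day 7) to 86.8% (day 4) of its UMIs there. Shares and ranks are among the genes that passed. With a limit of 10 UMIs, 7 members and 3634 of 15060 genes were called higher. Tnc had the steepest gradient, with a log2 fold change of 6.48 (SE 0.45, adjusted p = 6.16e-06), rank 5 of the 4767 genes. By day its Q1 levels were 190, 352, 333 and 32.6 CPM, and its Q4 levels 2.41, 1.32, 2.69 and 0.714. Q4 held only 3 to 7 Tnc UMIs per section, and Q1 and Q4 did not overlap.

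Fn1 followed at 4.65 (SE 0.46, adjusted p = 2.04e-05). Its Q1 levels of 519, 3840, 3305 and 944 CPM on days 1, 4, 7 and 14 stood against 36.1, 66.9, 73.0 and 32.1 in Q4. Postn differed by 4.16 (SE 0.51, adjusted p = 5.48e-05), with 135, 2868, 3398 and 450 against 17.5, 58.5, 71.4 and 26.6. Cilp differed by 3.94 (SE 0.52, adjusted p = 7.48e-05), with 10.6, 85.2, 113 and 54.7 against 0.688, 0.527, 6.14 and 5.23, where the first 2 Q4 values rest on 2 UMIs each. In these 3 genes the lowest Q1 value lay above the highest Q4 value.

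Among the thrombospondins, Thbs1 differed by 4.27 (SE 0.36, adjusted p = 1.03e-05), with 124, 311, 180 and 47.0 CPM in Q1 against 4.47, 5.53, 7.68 and 4.52 in Q4. Thbs4 had the smallest difference of the members, 1.99 (SE 0.32, adjusted p = 0.000226), with 43.8, 98.2, 59.2 and 23.5 against 7.91, 7.64, 11.1 and 11.4. Thbs2 differed by 2.89 (SE 0.58, adjusted p = 0.000862) and was the member whose Q1 and Q4 levels overlapped. On day 1 it stood at 11 in Q1 and 12.7 in Q4, a ratio of 0.861 (0.514 to 1.43), while on days 4, 7 and 14 Q1 held 236, 380 and 107 against 21.6, 10.8 and 10.2. The other 6 members were higher in Q1 in 4 of 4 sections, day 1 included, and Thbs2 in 3 of 4. The share of all genes that were higher in Q1 in every section, or whose levels did not overlap, was not counted.

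In Q2 against Q4, 6 of the 7 members rose, where 3.34% of all genes did. The log2 fold changes were 3.87 for Tnc (SE 0.48, adjusted p = 0.00574), 3.04 for Cilp (SE 0.53, adjusted p = 0.0195), 2.71 for Postn (SE 0.49, adjusted p = 0.0195), 2.21 for Fn1, 1.67 for Thbs1 and 1.52 for Thbs4. Thbs2 gave 0.86 (SE 0.59, adjusted p = 0.347). These calls rested on every one of the day 1, 4 and 7 sections, because without any 1 of them 0 members passed, at log2 fold changes of the 6 genes between 1.20 and 3.82. Without TMM scaling 4 members passed, since Thbs1 and Thbs4 came to an adjusted p of 0.0521.

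Q3 did not separate from Q4 in edgeR's test. The count of genes called was 0 (0% of all genes and 0 members), and 27 genes had an unadjusted p under 0.05. The members' log2 fold changes lay between -0.22 for Thbs1 and 0.81 for Tnc, with SE of 0.35 to 0.68.

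**Figure D2:**
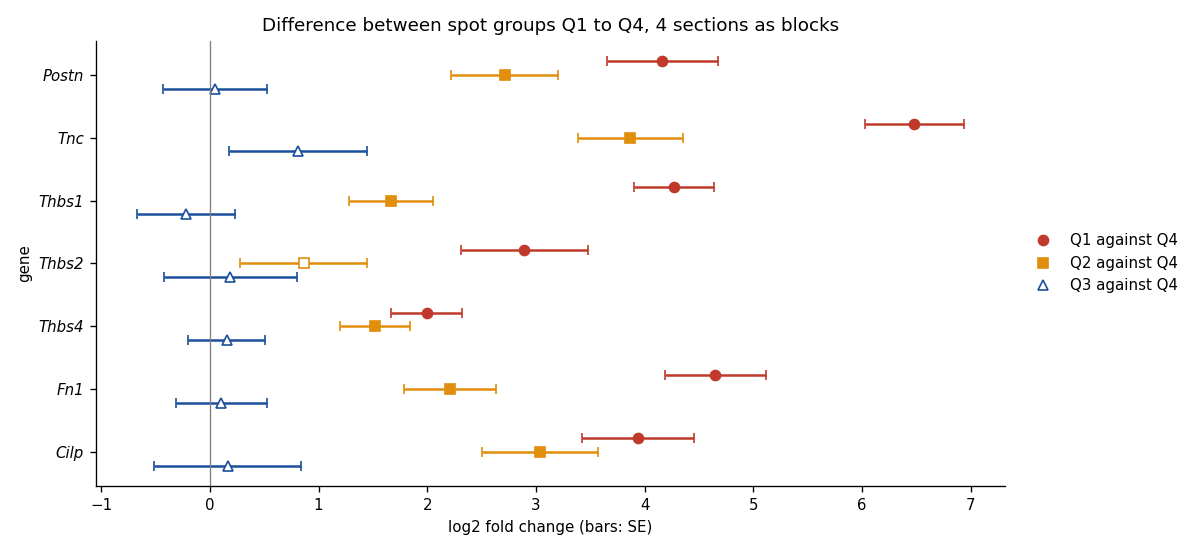
Log2 fold change (points) with SE (bars) of each gene for spot groups Q1, Q2 and Q3 against Q4, from the fit over the 16 libraries of 4 sections and 4 groups with the section as a block. Filled symbols passed an adjusted p of 0.05 and open ones did not, and the difference from Q1 to Q4 runs from 1.99 for Thbs4 to 6.48 for Tnc.

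Q1 against Q2, a comparison added after the values had been seen, set Thbs4 and Cilp beside the other members. Thbs1 (2.60, SE 0.31), Tnc (2.61, SE 0.32), Fn1 (2.44, SE 0.42), Thbs2 (2.03, SE 0.53) and Postn (1.45, SE 0.45) rose, where 22.5% of all genes did. Thbs4 gave 0.47 (SE 0.28, adjusted p = 0.180) and Cilp 0.91 (SE 0.39, adjusted p = 0.0725). Without day 4 or without day 7 the count of members fell to 3, as Postn and Thbs2 no longer passed, and Thbs2 also did not pass without day 14. Without TMM scaling all 7 passed, with Thbs4 at 0.81 and Cilp at 1.23, while the median of all genes moved from 0.03 to 0.35.

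Cutting the ranked spots into 10 deciles resolved where the levels were highest. In the day 4 section Fn1, Tnc, Thbs1 and Thbs2 were highest in decile 1, the poorest in cardiomyocyte RNA, at 5049, 439, 452 and 290 CPM, and lower in decile 3, at 1827, 181, 108 and 119. Postn was highest in decile 2, at 3630 against 2203 in decile 1. Thbs4 and Cilp had their highest levels in decile 3, where cardiomyocyte RNA was more abundant, although Cilp stood close to it in decile 2.

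Thbs4 stood at 24.8, 99.7, 152 and 59.7 CPM in deciles 1 to 4 on day 4, so that decile 3 held 6.13 times the level of decile 1 (4.06 to 9.62). On day 7 it stood at 42.6, 66.1, 170 and 36.6 in the same deciles, a ratio of 3.98 (2.64 to 6.16). Cilp stood at 33.4, 104, 106 and 53.0 on day 4, a ratio of decile 3 to decile 1 of 3.16 (2.17 to 4.73), and at 66.8, 119, 262 and 75.9 on day 7, a ratio of 3.93 (2.83 to 5.54). On these days Fn1, Tnc, Thbs1 and Thbs2 had ratios between 0.239 and 0.677, each with an interval below 1, and Postn had 1.13 on day 4 (1.07 to 1.19) and 1.55 on day 7 (1.46 to 1.64). Postn was also highest in decile 3 on day 7, at 4274 CPM. On day 7, 56, 49 and 13 spots of deciles 1, 2 and 3 held 10 or more UMIs of fast skeletal muscle genes. The list of these genes summed to 43542, 32050 and 4741 CPM there, and its part in the day 7 ratios was not tested.

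On day 1 the levels of Thbs4, Cilp and Postn were also highest in decile 3, but their ratios of decile 3 to decile 1 had intervals that included 1. The ratios were 1.19 for Thbs4 (0.776 to 1.84), 2.20 for Cilp (0.901 to 6.12) and 1.18 for Postn (0.932 to 1.51). Tnc, Thbs1 and Fn1 had 0.420, 0.524 and 0.683 with intervals below 1. On day 14 all 7 members were highest in decile 1, and the ratios ran from 0.003 for Tnc, with 1 UMI in decile 3, to 0.0785 for Thbs4. Decile 1 of day 14 had 0.230% Myh6 and Myl2, against 1.605% in decile 2. The share of all genes highest in a given decile was not counted on any day, so the decile peaks describe the members only. The deciles are not the same tissue on each day, since the Myh6 and Myl2 share of decile 3 was 1.08%, 0.654%, 0.792% and 1.93% on days 1, 4, 7 and 14. Border-stress genes such as Nppa, Ankrd1 and Clu also had their largest summed level in decile 3 on days 4 and 7, at 45390 and 31396 CPM against 5199 and 13949 in decile 1, and their part in the Thbs4 and Cilp levels was not tested. With 1 section per day these ratios compare spots within 1 mouse.

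**Figure D3:**
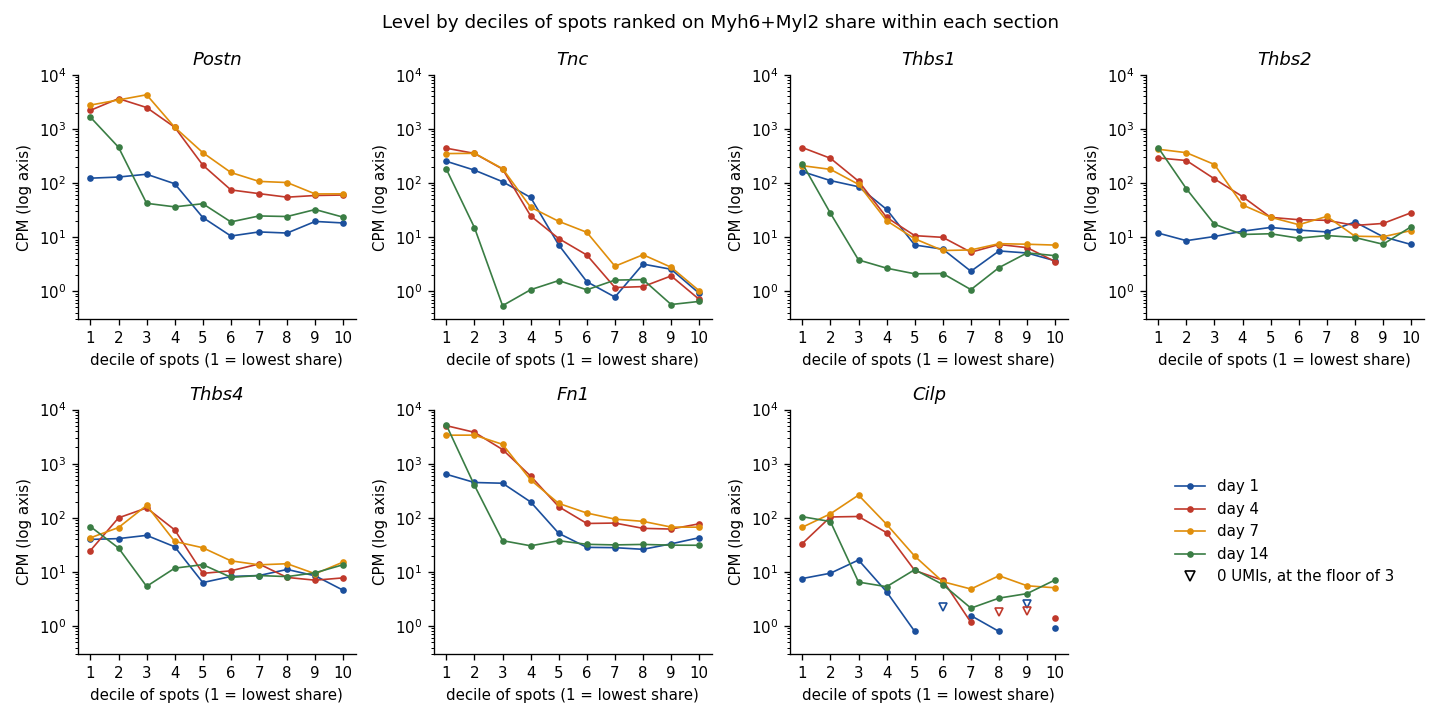
Level of each gene in CPM (log axis) in deciles of spots ranked by Myh6 and Myl2 share within each section, 1 line per day, with open triangles at the floor of 3 UMIs where a decile held 0. Tnc and Thbs1 are lower in decile 3 than in decile 1 on every day, while Thbs4 and Cilp peak in decile 3 on days 4 and 7, with Thbs4 at 152 and 170. Postn peaks there on day 7, at 4274. Skeletal muscle RNA lay mostly in deciles 1 and 2 on day 7.

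The members were also set against interstitial collagen RNA, as UMIs per 1000 UMIs of Col1a1 and Col3a1 over the section. Tnc was at 77.8 on day 1 (71.9 to 84.0) and at 13.8, 12.4 and 5.83 on days 4, 7 and 14 (the last 4.65 to 7.22). Thbs1 went from 55.2 on day 1 to 12.4, 7.17 and 9.51, and Thbs4 from 28.4 to 6.08, 6.20 and 13.0. These 3 genes and Fn1 (257, 162, 133 and 167) were highest on day 1 by this ratio, as were 94.9% of all genes, and the section of day 1 held 8383 collagen UMIs against 81206, 51575 and 14400 on days 4, 7 and 14.

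Postn had 80.9, 141, 168 and 93.4 per 1000 on days 1, 4, 7 and 14 and its highest value on day 7. Thbs2 (17.4, 12.3, 15.1 and 25.9) and Cilp (5.85, 4.68, 8.18 and 13.1) were highest on day 14. Of all genes, 0.0839%, 0.315% and 4.68% were highest on days 4, 7 and 14 per collagen UMI, beside 0, 1 and 2 members. Q1 had 3838 CPM of the 15 collagen and cross-linking genes on day 1 and 45139 and 48384 on days 4 and 7.

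**Figure D4:**
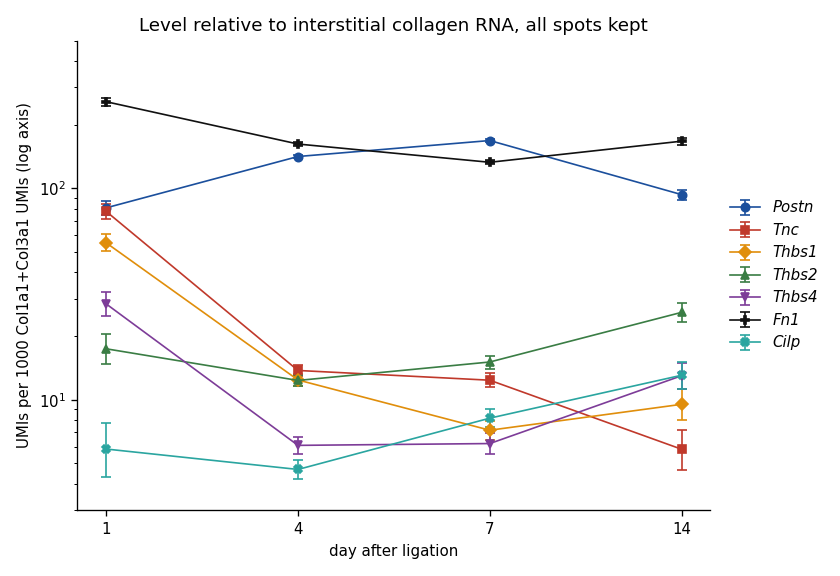
UMIs of each gene per 1000 UMIs of Col1a1 and Col3a1 (log axis) over all spots kept, by day after ligation, with exact Poisson intervals at 95% for the UMIs of the gene. Tnc descends from 77.8 on day 1 to 5.83 on day 14, whereas Thbs2 and Cilp are highest on day 14 at 25.9 and 13.1.

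Within Q1, spots were split at the median share of Col1a1 and Col3a1 to ask whether the members went with collagen RNA. Fn1, Postn, Thbs1, Thbs2 and Tnc had ratios of collagen-rich to collagen-poor spots above 1 in 4 of 4 sections. The intervals of Thbs1 on day 4 and of Tnc on day 1 included 1, and the share of all genes with such ratios was not counted. Each of these genes had its largest ratio on day 14, where the collagen-poor spots were myocardium, as described below. Thbs2 had the largest log2 difference in the fit over the 8 libraries, 1.97 (SE 0.35), with 17.5, 359, 679 and 445 CPM by day in the rich spots against 4.92, 138, 153 and 33.4 in the poor spots. Postn gave 1.26 (SE 0.46). edgeR's quasi-likelihood test called 0 genes and 0 members after adjustment (0% of all genes), and 841 genes had an unadjusted p under 0.05, among them Thbs2 and Postn, both with an adjusted p of 0.279.

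Thbs4 and Cilp had ratios on both sides of 1. On day 1 the ratio was 0.980 for Thbs4 (0.673 to 1.43) and 6.77 for Cilp (2.34 to 26.8), and on day 7 it was 1.23 (0.788 to 1.92) and 0.827 (0.595 to 1.14). On day 4 Thbs4 stood at 25.4 CPM in the collagen-rich and 156 in the collagen-poor spots, a ratio of 0.163 (0.108 to 0.238), and Cilp at 45.9 and 116, a ratio of 0.395 (0.287 to 0.536). On day 14 the ratios were 5.14 for Thbs4 (2.82 to 9.43) and 4.88 for Cilp (3.32 to 7.18), but there the collagen-poor spots were myocardium, with 1.77% Myh6 and Myl2 against 0.427%. On day 7 skeletal muscle RNA was found in 104 of the collagen-poor and 11 of the collagen-rich spots. On day 4 the collagen-poor spots also held more cardiomyocyte RNA, with 0.362% Myh6 and Myl2 against 0.155%. Their border-stress genes summed to 31456 CPM against 11926. The part of these differences in the ratios of any member was not tested.

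Q1 was also split at the median share of the macrophage list. Fn1 and Thbs2 were higher in the macrophage-rich spots in 4 of 4 sections. The Fn1 ratios were 2.33, 1.46, 2.19 and 28.7 on days 1, 4, 7 and 14. Those of Thbs2 ran from 1.45 on day 1, with an interval that included 1 (0.663 to 3.21), to 10.5 on day 14. edgeR's test gave a log2 difference of 1.54 for Fn1 (SE 0.67, adjusted p = 0.206). For Thbs2 it gave 1.104 (SE 0.45, adjusted p = 0.189). The share of all genes that were higher in every section was not counted. The macrophage-poor spots of day 14 were myocardium too, with 1.78% Myh6 and Myl2 against 0.528%. On day 4 the poor spots had 0.374% against 0.129%, and 33642.5 CPM of border-stress genes against 8040. On day 7, 105 of the macrophage-poor spots held skeletal muscle RNA against 10 of the rich ones. The part of these differences in the ratios of any member was not tested. Postn was lower in the macrophage-rich spots on day 4, at 2482 against 3151 CPM (ratio 0.787, 0.752 to 0.825), and higher on the other days. Tnc and Thbs1 had day 4 ratios of 0.980 (0.860 to 1.11) and 0.955 (0.831 to 1.10).

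Thbs4 was lower in the macrophage-rich spots on days 1, 4 and 7, at ratios of 0.659, 0.177 and 0.600 with intervals below 1, and Cilp on days 4 and 7, at 0.231 and 0.610. On day 14 both were higher there, at 4.10 for Thbs4 (2.25 to 7.50) and 4.86 for Cilp (3.31 to 7.18), and Cilp on day 1 had 1.03 (0.456 to 2.29). Again edgeR called 0 genes and 0 members (0% of all genes), and 1206 genes had an unadjusted p under 0.05, of the members only Thbs2. Between the upper and lower of 3 equal groups of Q1, in place of a split at the median, Thbs2 (1.44, adjusted p = 0.0353) and Fn1 (2.15, adjusted p = 0.0416) passed, where 8.95% of all genes were called higher. Collagen and macrophage RNA overlapped, as the macrophage-rich spots held 1.27 to 12.1 times the summed collagen list of the poor spots. The splits still gave different values, with day 4 Postn at 1.29 (1.23 to 1.35) by collagen and 0.787 by macrophage share, and day 1 Fn1 at 1.12 (1.00 to 1.24) and 2.33 (2.09 to 2.60).

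**Figure D5:**
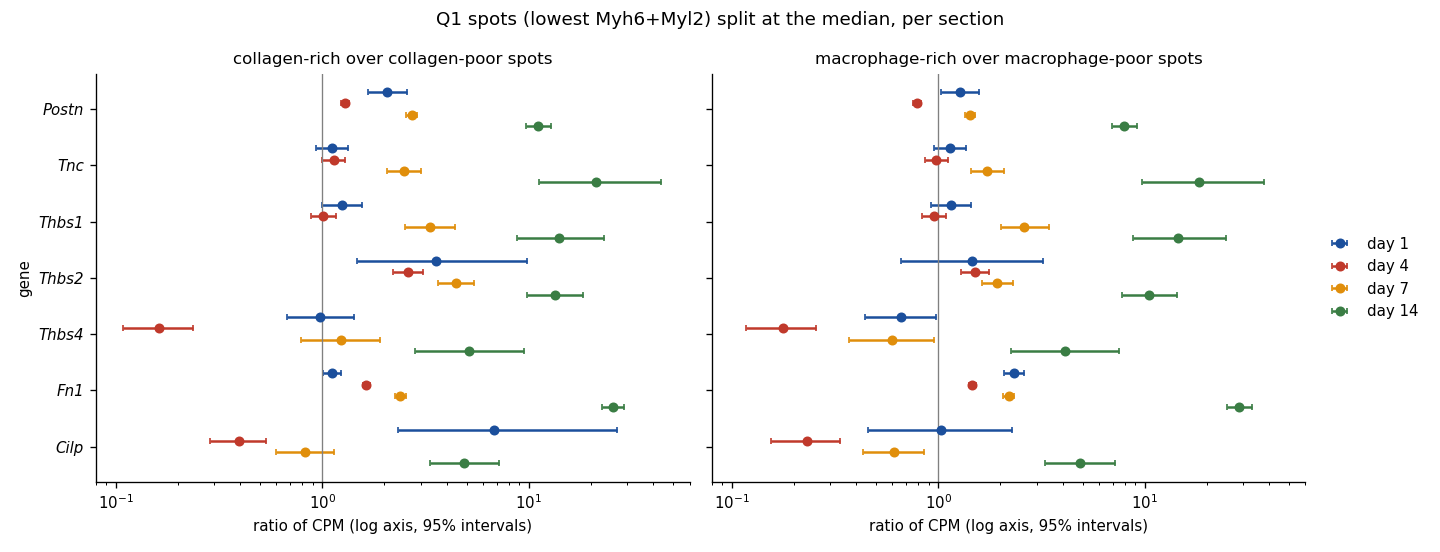
Ratio of CPM (log axis, exact intervals at 95%) between spots of Q1 split at the median on collagen share (left) and on macrophage share (right), 1 point per section. The day 4 points of Thbs4 lie at 0.163 and 0.177 and those of Cilp at 0.395 and 0.231. On day 4 the collagen-poor and macrophage-poor spots held more border-stress RNA than the rich ones. Fn1 and Thbs2 lie above 1 in every section on both sides.

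The receptors through which these proteins act had a lower median difference than the members. Of 25 integrin, syndecan and other receptor genes, 14 reached 1000 UMIs, of which 9 rose and 2 fell in Q1 against Q4, with a median log2 fold change of 0.85 beside 0.05 for all genes. Sdc1, the heparan sulfate proteoglycan syndecan-1, rose by 3.47 (adjusted p = 8.03e-06), Itga5, the fibronectin receptor subunit, by 1.87, Lrp1, an endocytic receptor for thrombospondins, by 1.64, and Itgav, the alpha-v integrin used by periostin and fibronectin, by 1.56. Cd36, a thrombospondin-1 receptor and fatty acid transporter, fell by 1.58 (adjusted p = 0.000197), and Cacna2d1, a calcium channel subunit that binds thrombospondins, fell by 0.39.

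Among 27 genes of TGF-beta activation and matrix processing, 13 were tested, 11 rose and 0 fell, with a median of 1.76. The latent TGF-beta binding protein Ltbp2 rose by 5.42, Tgfb3 by 3.22, and the procollagen proteinases Adamts2 and Bmp1 by 3.0 and 2.74. Of 15 collagen and cross-linking genes 14 rose, with a median of 3.08, led by Col12a1 (5.63), the lysyl oxidase Lox (5.40), Col1a1 (3.98) and Col1a2 (3.94), and Dcn gave 0.57 (adjusted p = 0.188). Of 26 other matricellular genes 17 were tested, 14 rose and Smoc2 fell by 0.56, with a median of 2.37, led by osteopontin Spp1 (6.43), Cthrc1 (5.20), galectin-3 Lgals3 (4.68) and Ccn5 (4.39).

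Markers of other cells moved with the same groups. All 11 macrophage genes tested and all 6 myofibroblast genes tested rose, with medians of 2.60 and 3.60, 5 of 8 fibroblast genes rose and Gsn fell, and all 13 cardiomyocyte genes tested fell. Of 6 endothelial genes 1 rose and 2 fell. Of 10 fast skeletal muscle genes tested 9 rose, with a median of 6.01. Their list summed to 6493, 1899, 33220 and 3324 CPM in Q1 on days 1, 4, 7 and 14, against 3289, 2320, 3208 and 3299 in Q4. The summed macrophage level of Q1 was 1437 to 7953 CPM, against 374 to 569 in Q4, and that of the fibroblast list 1690 to 15699, against 2419 to 3219. On day 1 the fibroblast sum was lower in Q1 than in Q4, at 1690 against 3174, while Tnc, Thbs1, Fn1, Postn, Thbs4 and Cilp were higher there. On the same day other lists were higher in Q1 than in Q4, with 442 against 83.6 CPM for myofibroblast genes, 1437 against 431 for macrophage genes and 3838 against 1546 for collagen and cross-linking genes. The part of cell numbers in the member levels was not tested.

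The members differed in the genes whose pattern was most like theirs over the 16 libraries, by Pearson's r of log2(CPM + 1). For Tnc these were Anxa2, Eef1a1 and Fxyd5, all at 0.99, for Thbs1 Cap1, Sdc1 and Cd14, at 0.99, and for Fn1 Lox, Laptm5 and Col12a1, at 0.99. For Postn they were B2m, Mfap5 and Serpinf1, at 0.98, and for Thbs2 Ctsk, Fndc1 and Cpxm1, at 0.97 to 0.98. For Thbs4 they included Emp1 and Col8a1, at 0.98 and 0.97, and for Cilp Mxra7, Reep3 and Gask1b, at 0.95. Among the members, Tnc and Thbs1 were most alike (0.97) and Tnc and Thbs2 least (0.74). The libraries share sections and depth, and the values are given as a description.

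In Q1 alone the peak days were those of the section except for Thbs4, which was highest on day 4, at 98.2 CPM against 59.2 on day 7 (ratio of day 7 to day 4 0.602, 0.468 to 0.770). This gave 4 members on day 4 and 3 on day 7, beside 34.1% and 25.7% of all genes, with 23.4% on day 1 and 16.8% on day 14. Q1 was not like tissue on each day, with 1.53% Myh6 and Myl2 on day 14 against 0.229% to 0.773% before. In spots under 0.5%, Fn1, Thbs2 and Thbs4 were instead highest on day 14. There, day 14 was not separable from day 7 for Thbs2, nor from days 4 and 7 for Thbs4. Thbs2 had the largest range over days in Q1, 34.7-fold from day 1 to day 7 (24.0 to 51.9), followed by Postn at 25.2-fold (22.7 to 28.1), while Tnc and Thbs4 stayed within 2.24-fold of day 1 on days 4 and 7. On day 1, when Thbs2 in Q1 was not separable from Q4, Tnc already stood at 190 CPM in Q1, against 352 at its highest.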

How the data were processed

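Per the file headers, the authors deposited UMI counts per gene and spot as filtered matrices of spots under tissue. Their processing notes name Space Ranger 1.3.0 and Seurat 4.1.1, and the methods give the mm10 mouse genome. The total UMIs per section are given with the results, and exact intervals cover counting error only.

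Spots with over 1% hemoglobin UMIs were removed here, and genes that reached 1000 UMIs in the spots kept were tested. This limit was taken over all spot groups together, so a gene could pass it through the group in which it was high. Myh6 and Myl2, and the genes that split spots in a later comparison, were not tested there. UMIs were summed per section and spot group and fitted with edgeR 4.0.16 (quasi-likelihood, TMM scaling, section as block, R 4.3.3). A gene was called at a Benjamini-Hochberg adjusted p of 0.05. The fit was also run on simulated counts with the same group difference in every section. That run does not cover group differences that vary by day. With the section as a block, the p-values measure how differences between spot groups varied over 4 mice that also differ in day. With only Q1 and Q4 in the fit, edgeR's adjusted p went from 6.16e-06 to 0.000319 for Tnc. For Thbs2 it went from 0.000862 to 0.0257. Ratios of 2 counts have exact conditional intervals at 95%, and where a group held 0 UMIs a floor of 3 UMIs is drawn. Levels and likeness used CPM, the latter as log2(CPM + 1).

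The genes named are all 7 members with their values, up to 4 genes with the largest rise or fall among those called in each other list, and for each member the 3 genes of highest Pearson's r over the 16 libraries, of which 1 is not reported here. The members and lists were chosen with earlier results of these data known. Alternatives were scaling by total UMIs, DESeq2 1.42.0, lower count limits, other hemoglobin limits, other rankings and group sizes, other denominators and leaving out each section. The comparison of Q1 with Q2 and the levels in spots chosen by a fixed Myh6 and Myl2 share or by decile were added after values had been seen. Motif positions were read from RefSeq promoter sequences of GRCm38.p6. No deposited annotation of zones was used here.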

Additional observations from a re-analysis of the deposited data

How the results depend on the processing

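Samples of different days could not be paired, because each day has 1 section and the labels give no replicate numbers that pair samples. Spot groups of the same section were paired in the fits, since the section was the block. The cause of a change was not tested except where stated. For Q1 against Q4, the 7 members were called in every alternative in which they were tested, and with hemoglobin limited to 0.5% Cilp was below the count limit, which left 6. Over all genes, 1676 were higher and 1548 lower, and these counts became 2578 and 938 without TMM scaling, 3200 and 2903 with genes of at least 100 UMIs, and 3634 and 3118 with genes of at least 10 UMIs, where more genes were tested. Without TMM scaling the all-gene median moved from 0.05 to 0.46 (log2). For Q2 against Q4, 159 genes were higher and 9 lower, against 65 and 2 without TMM scaling, and 0 to 562 and 0 to 331 when 1 section was left out, with 0 to 6 members called. For Q1 against Q2, 1074 were higher and 1189 lower, against 2207 and 649 without TMM scaling, and 316 to 950 and 126 to 1118 with 1 section left out, with 3 to 5 members called.

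In splits of Q1 by collagen share, leaving out 1 section gave 0 to 98 genes called lower. In splits by macrophage share it gave 0 to 112 higher and 0 to 517 lower, and the upper against the lower of 3 equal groups gave 426 higher, 589 lower and 2 members. Directions that turned all belonged to differences that passed no test. For Q3 against Q4, Postn turned to -0.026 without TMM scaling and spanned -0.18 to 0.25 with 1 section left out, Thbs1 -0.56 to 0.11, Fn1 -0.0097 to 0.25 and Cilp -0.26 to 0.65. With 1 section left out, Thbs4 spanned -0.96 to 0.49 and Cilp -0.44 to 1.04 in the collagen split, and Cilp -1.32 to 0.18 in the macrophage split.

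Peak days depended on the denominator and on the spots. Members highest on days 1, 4, 7 and 14 numbered 0, 3, 4 and 0 over the section. Per 1000 UMIs of Col1a1 and Col3a1 they numbered 4, 0, 1 and 2, with 94.9% of all genes highest on day 1 by this ratio, and per 1000 UMIs of the fibroblast list 3, 1, 3 and 0. In spots under 0.5% Myh6 and Myl2 they numbered 0, 2, 2 and 3, in the first decile 0, 2, 1 and 4, and in spots of 0.5% to 1.5% they numbered 1, 0, 3 and 3. For the fibroblast list and these groups of spots the share of all genes per day was not counted, so these numbers describe the members only. Thbs4 peaked on day 4 without the hemoglobin filter, and Tnc on day 7 by the mean over spots. Genes with few UMIs, such as Cilp with 49 on day 1, set the limit of precision.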

Other observations

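Spots with an intermediate share of cardiomyocyte RNA, 0.5% to 1.5% of UMIs from Myh6 and Myl2, numbered 615, 326, 206 and 145 on days 1, 4, 7 and 14. In these spots Cilp, the TGF-beta inhibitor, stood at 10.9, 80.2, 220 and 289 CPM by day, and Thbs2, the inhibitor of blood vessel growth, at 10.2, 87.3, 142 and 307. Their levels on day 14 were thus higher than on day 4, with intervals of 224 to 367 for Cilp and 239 to 387 for Thbs2 on day 14. Fn1, at 424, 1222, 1575 and 1460 by day, and Thbs1, at 100, 66.4, 72.3 and 121, were also higher on day 14 than on day 4. Their day 14 intervals were 1308 to 1624 and 80.3 to 175, against 1179 to 1266 and 56.7 to 77.2 on day 4. Tnc, the anti-adhesive glycoprotein, went the other way, with 148 on day 1 and 43.2 on day 14, the latter from 10 UMIs. Thbs4 stood at 40.1, 107, 135 and 69.1. Postn was highest on day 7, at 3273, and stood at 1520 on day 14. The median depth of the intermediate spots was 1140 UMIs on day 14 and 4500.5 to 7958 on the other days. Their content differed too. Border-stress genes summed to 42154 CPM on day 4 and 11556 on day 14, and collagen and cross-linking genes to 19691 and 27505. The part of depth and of this content was not tested.

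The spots removed for hemoglobin numbered 261, 347, 336 and 655 in the order of days. In them Fn1 stood at 91.5, 860, 516 and 349.6 CPM, against 180, 917, 737 and 153 in the spots kept, and was thus lower in the removed spots on days 1, 4 and 7 and higher on day 14. Postn stood at 29.1, 933, 408 and 115, against 56.7, 800.5, 934 and 85.6, higher in the removed spots on days 4 and 14. These spots lay outside every comparison except those run without the hemoglobin filter.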
